A study of Mus musculus with 24 samples.

Results

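Of the 12 libraries made from wild-type (WT) mouse embryonic fibroblasts (MEFs), which are matrix-producing cells grown in culture from embryo tissue, the 3 of the earliest passage, labelled 12, were set against the 9 of passages 13, 14 and 15. Members were chosen by genotype and passage label alone, and the whole series holds 24 libraries. The other 12 come from MEFs labelled AMPK KO, which lack AMP-activated protein kinase (AMPK; in the study, both catalytic subunit genes, Prkaa1 and Prkaa2), at passages 16 to 19, 3 libraries each. Each passage of each genotype gave 1 library treated with DMSO (the vehicle), 1 with MK-8722 (a small-molecule AMPK activator) and 1 with torin1 (which inhibits the MTOR kinase), so treatment was balanced between the passages. Both lines were obtained from another laboratory, and the sources do not say whether either is a single clone. A passage is the splitting of a grown culture into new vessels, and the labels put all 24 libraries in 1 batch. The 3 libraries of passage 12 share a passage label, so passage cannot be told apart from the culture, the day or anything else these libraries share, and p-values measure the spread between libraries.

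MEFs supply themselves with sterols and non-essential amino acids through transcription programs that respond to need. When sterols are short in the endoplasmic reticulum, SREBP2 (gene Srebf2) moves to the nucleus and turns on the genes of cholesterol synthesis and uptake. ATF4, made when amino acids are short or when MTOR complex 1 is active, turns on genes that include those of amino acid synthesis and import. The listed genes of this ATF4 program are here called integrated stress response (ISR) genes. MTOR inhibition is known to lower both programs, and AMPK is known to inhibit sterol synthesis enzymes.

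Total estimated counts per library were lowest in WT MK-8722 replicate 3, at 26900240, and highest in WT DMSO replicate 4, the passage 12 DMSO library, at 34192685. The passage 12 libraries had RNA integrity numbers (RIN) of 9.7, 9.9 and 9.7 under DMSO, MK-8722 and torin1, against 9.8 to 10 in the later WT libraries. Fibroblast markers summed to 10799 to 14272 CPM (counts scaled to the same library size) in passage 12 and 12074 to 17443 CPM in later passages, and Fap, Dcn and Lum averaged under 0.1 CPM. None of the 12 fibroblast markers tested was called by edgeR, with 5 at an unadjusted p under 0.05, and DESeq2 called 4 as lower. Of 8 endothelial and 10 macrophage and leukocyte markers, 6 and 8 averaged under 0.1 CPM as well, among them Pecam1, Cdh5, Ptprc and Adgre1. These lists summed to at most 8.29 and 4.43 CPM in any WT library. Epithelial markers summed to 49.3 to 64.5 CPM in passage 12 and 34.5 to 63.1 CPM later, with 5 of 10 under 0.1 CPM. Mesothelial and pericyte markers summed to 234 to 347 CPM and 151 to 321 CPM, with 4 of 7 under 0.1 CPM. Neural and glial markers summed to 84.3 to 119 CPM and 92 to 136 CPM. The sums of chondrocyte markers were 11.8 to 13.2 CPM and 9.11 to 15.1 CPM. Of 3 neural and glial markers tested 1 was called as lower, and of 3 chondrocyte markers 1 as higher (3.22% and 2.67% of all genes were). Prkaa1 was at 77.4 to 79.4 CPM in passage 12 and differed by 0.03 on the log2 scale (adjusted p = 0.76). After the treatment means were removed, the first principal component (24.5% of the variance) placed the passage 12 libraries at 19.1 to 23.4, those of passage 13 at -21.7 to -17.3 and the other WT libraries between -6.42 and 2.02.

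**Figure D1:**
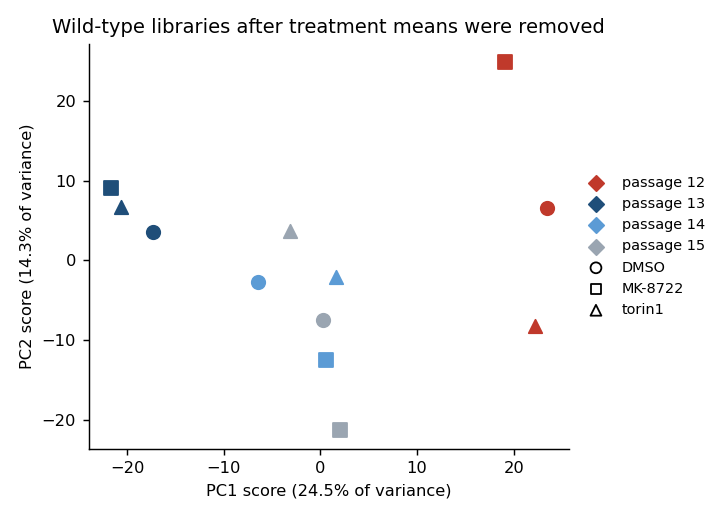
Principal component scores of the 12 WT libraries after treatment means were removed, with passage as colour and treatment as symbol. On PC1 the 3 passage 12 libraries lie at 19.1 to 23.4 and the 3 passage 13 libraries at -21.7 to -17.3, on either side of passages 14 and 15.

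Passage 12 differed from the later passages in 860 of 14599 genes tested (5.89%), with 390 higher (2.67%) and 470 lower (3.22%). Calls required an adjusted p under 0.05 together with a fold change of 1.2 or more in a quasi-likelihood fit with treatment as covariate, and all differences below are passage 12 minus later passages on the log2 scale. Those higher included 15 of 28 ISR genes and those lower 14 of 24 genes of cholesterol synthesis and uptake, as the plot of listed genes shows. The number called was 230 (1.58%) with the 3 libraries of each passage summed into 1, which leaves 1 library against 3, and 95 (0.651%) with RIN as a further covariate. It was 430 without the passage 12 DMSO library and 493 without the passage 12 MK-8722 library. Members of a list beyond the largest in each direction were named after their values had been seen.

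**Figure D2:**
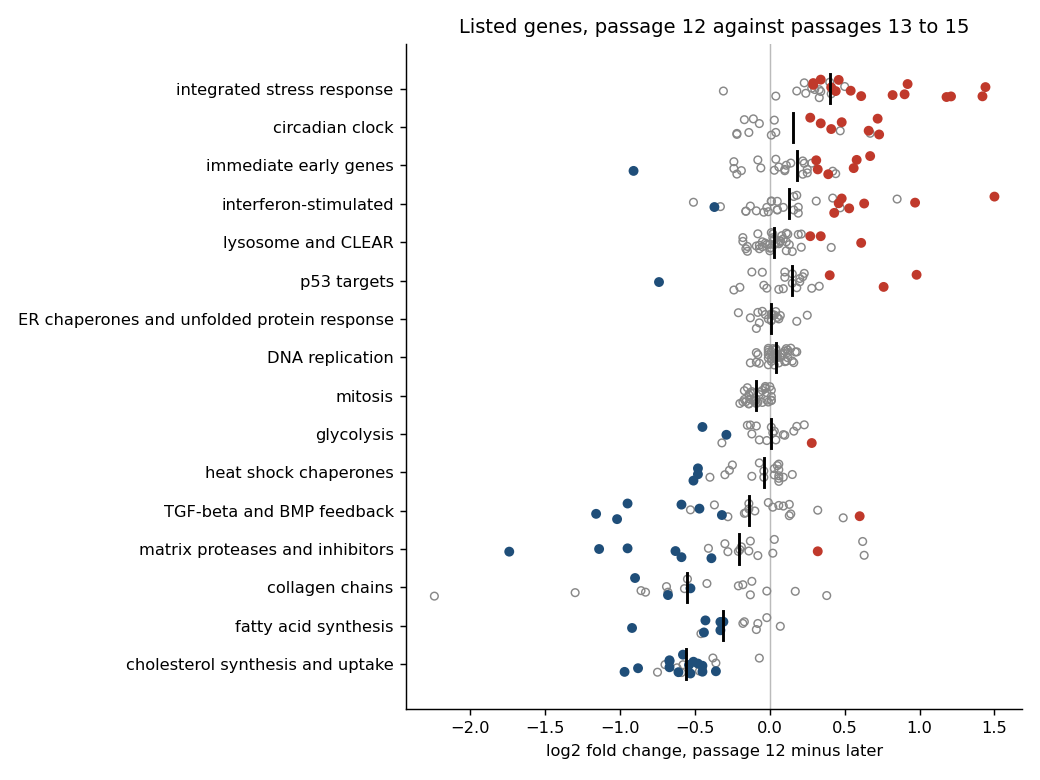
Log2 fold change of passage 12 against passages 13 to 15 (horizontal axis) for each tested member of 16 gene lists. Red and blue points are genes called higher and lower, open points were not called, and the black bar is the list's median, which is 0.40 for the integrated stress response and -0.56 for cholesterol synthesis and uptake.

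Of 28 tested ISR genes 15 rose in passage 12, against 2.67% of all genes, and none fell. The median difference was 0.40, where that over all genes was 0. With 1 summed library per passage 11 rose (0.829% of all genes did), and with RIN as covariate 8 rose (0.384% of all genes did). The number was 6 without the passage 12 MK-8722 library, 8 without the passage 12 DMSO library and 25 without the passage 12 torin1 library. Atf4 itself differed by 0.24 (adjusted p = 0.0065), short of the fold threshold. Cbs, at 0.912 CPM in passage 12 and 1.11 CPM later, was the single member with a negative difference (-0.31, adjusted p = 0.41).

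Slc7a11 (chromosome 3, 49892526 to 50443614, minus strand, GRCm38), which brings cystine into the cell, was at 39 CPM in the passage 12 DMSO library and at 19, 12.5 and 14.1 CPM in passages 13, 14 and 15. Under MK-8722 it was at 27.4 CPM against 10.9, 7.93 and 7.89 CPM. Under torin1 it was near background at 0.336 CPM against 0.395, 0.198 and 0.14 CPM. The passage 12 library was thus the highest in DMSO and in MK-8722 and lay within the later libraries in torin1, and the fitted difference was 1.44 ± 0.161 (SE; edgeR adjusted p = 0.00047). Slc7a3, a transporter of cationic amino acids, rose by 1.18 (adjusted p = 0.00059).

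Cth, which releases cysteine from cystathionine, was at 63.9 CPM in passage 12 DMSO against 24.3, 20 and 24.3 CPM in the later passages. Its passage 12 library was at 68.4 CPM under MK-8722, against 24.8, 24.4 and 26.6 CPM. Under torin1 the values were 5.84 CPM against 5.2, 4.84 and 4.85 CPM. Cth rose by 1.21 ± 0.164 (adjusted p = 0.0022), but the size depended on treatment (adjusted p of the interaction = 0.024). Psph, Phgdh, Shmt2, Mthfd2 and Asns, which make serine, one-carbon units and asparagine, rose by 0.61, 0.29, 0.44, 0.34 and 0.46. Of these, Asns and Psph lost the call in most fits that left out 1 library.

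The regulators Atf5, Trib3, Nupr1, Chac1 and Cebpg rose by 0.82, 0.90, 0.54, 0.41 and 0.29. Atf5, a transcription factor of the same stress response, was at 317 CPM in passage 12 DMSO and at 144 to 190 CPM in the later DMSO libraries. Its torin1 libraries stood close together, with 37.3 CPM in passage 12 and 34 to 37 CPM later. The secreted glycoprotein Stc2 rose by 0.92, from a low level (7.95 against 4.2 CPM). Vldlr encodes the very low density lipoprotein receptor and is a known ATF4 target. Among genes open to naming at a mean of at least 5 CPM, with passage 12 outside the later libraries in every treatment, Vldlr had the largest rise. It was at 83, 93.1 and 35.6 CPM in passage 12 under DMSO, MK-8722 and torin1, and at most at 29.7, 31.7 and 22.4 CPM in the later libraries of the same treatments. All 3 passage 12 libraries were therefore above the later ones, a 2.68-fold rise (log2 1.42 ± 0.165, adjusted p = 0.0011).

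**Figure D3:**
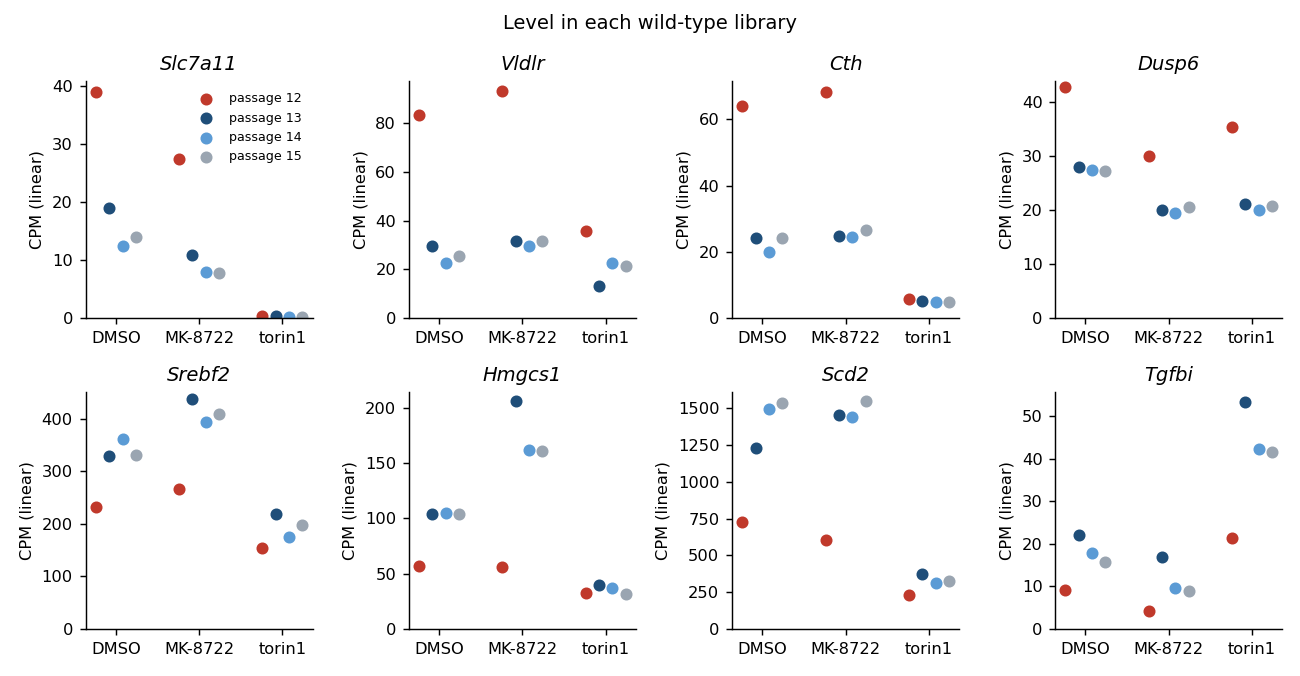
Level in CPM (linear axes from 0) of 8 genes in each of the 12 WT libraries, by treatment and with passage as colour. For Vldlr, Dusp6, Srebf2, Scd2 and Tgfbi the red passage 12 point lies outside the later passages in every treatment, while for Cth the passage 12 points are 63.9 and 68.4 CPM in DMSO and MK-8722 and 5.84 CPM in torin1.

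The bases just upstream of 2 ISR genes that rose, Slc7a11 and Chac1, are shown because they hold the letters TGATGNAA, the core of the C/EBP-ATF response element, in the orientation given or reversed. The sequences are from RefSeq for GRCm38.p6 and end before the first base that GENCODE gives as an exon, and capitals mark the match. Slc7a11 has 249 bases at chr3:50443615-50443863 on the minus strand, with matches that begin 66 and 47 bases before the start site. Chac1 has 237 bases at chr2:119350992-119351228 on the plus strand, with a match that begins 193 bases before the start site.
Slc7a11: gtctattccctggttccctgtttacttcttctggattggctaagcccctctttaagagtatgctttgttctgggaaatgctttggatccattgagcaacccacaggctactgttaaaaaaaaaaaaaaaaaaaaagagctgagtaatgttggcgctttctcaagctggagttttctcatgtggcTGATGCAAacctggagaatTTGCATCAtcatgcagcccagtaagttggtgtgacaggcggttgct
Chac1: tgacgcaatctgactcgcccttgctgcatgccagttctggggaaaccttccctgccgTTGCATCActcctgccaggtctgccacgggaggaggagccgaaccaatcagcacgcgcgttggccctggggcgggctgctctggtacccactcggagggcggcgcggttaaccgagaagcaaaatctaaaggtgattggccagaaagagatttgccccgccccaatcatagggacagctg
Of the 26 ISR genes with a promoter in the table, 7 held these letters within 250 bases upstream on either strand (Atf3, Chac1, Asns, Slc7a11, Nupr1, Vldlr and Fgf21), as did 3.91% of all 27025 genes with a promoter. Of the 13 called ISR genes with a promoter 5 held them. Upstream windows count from RefSeq start sites, and that of Vldlr lies partly within the gene as GENCODE annotates it.

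Genes of cholesterol synthesis and uptake moved the other way. All 24 were tested, all 24 had a negative difference, and 14 fell (3.22% of all genes did), with a median of -0.56. With 1 summed library per passage 21 fell, against 0.747% of all genes. With RIN as covariate edgeR called none, at a median of -0.61, a lowest adjusted p of 0.05 and 20 members with an unadjusted p under 0.05. DESeq2 called 18 as lower, and edgeR with the replicate number as a block 5. Leaving out the passage 12 DMSO library left 5, leaving out the passage 12 MK-8722 library 6, and leaving out the DMSO library of passage 14 left 8, while 22 fell without the passage 12 torin1 library. So the direction was the same in each of these fits, and the number past the threshold was not.

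The members that fell span the pathway. Hmgcs1, at its entry, fell by 0.88, and Mvk, Pmvk, Mvd and Fdps, which carry mevalonate to farnesyl pyrophosphate, fell by 0.36 to 0.48. Fdft1, Sqle, Lss, Cyp51, Nsdhl and Dhcr7, which build squalene and turn it into cholesterol, fell by 0.53 to 0.67. Srebf2, which encodes the regulator, fell by 0.51 ± 0.0674 (adjusted p = 0.00062). The smallest difference, -0.07 (adjusted p = 0.44), was that of Ebp, a sterol isomerase.

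Srebf2 (chromosome 15, 82147181 to 82205379, plus strand) shows the levels behind these values. It was at 231 CPM in passage 12 DMSO and at 329, 361 and 331 CPM in passages 13 to 15. Under MK-8722 it was at 267 CPM against 437, 394 and 409 CPM. Under torin1 it was at 154 CPM, and the later libraries were at 175 CPM or more. Passage 12 was the lowest library in each treatment. The 250 bases upstream of Hmgcs1 (chr13:119690101-119690350, plus strand) are shown because they hold TCACNCCAC, the sterol regulatory element, beginning 137 bases before the start site and set in capitals.
Hmgcs1: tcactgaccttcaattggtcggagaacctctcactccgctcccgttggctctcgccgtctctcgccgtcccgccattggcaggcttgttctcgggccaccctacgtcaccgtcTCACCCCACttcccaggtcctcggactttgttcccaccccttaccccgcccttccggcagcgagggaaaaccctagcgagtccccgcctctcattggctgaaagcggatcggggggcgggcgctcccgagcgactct
Hmgcs1 was the 1 gene of 16 in this list with a promoter in the table that held these letters within 250 bases on either strand, against 1.22% of all genes.

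Of 13 tested genes of fatty acid synthesis 6 fell and none rose (3.22% and 2.67% of all genes did). Scd2, a stearoyl-CoA desaturase that makes monounsaturated fatty acids, fell by 0.92 ± 0.132 (adjusted p = 0.0028), with 729, 603 and 231 CPM in passage 12 and at least 1231, 1441 and 310 CPM later. Its relative Scd1 fell by 0.44, the desaturases Fads1 and Fads2 by 0.31 and 0.43, Acsl3, which activates fatty acids, by 0.33, and Me1, which supplies NADPH, by 0.33. The synthase Fasn differed by -0.09 (adjusted p = 0.52). Desaturases were 4 of the 6 that fell.

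The median difference of the sterol genes was -0.57 in DMSO, -0.97 in MK-8722 and -0.13 in torin1, and that of the ISR genes was 0.47, 0.65 and 0.06. Each treatment has 1 passage 12 library, so a test of this dependence takes its spread from the later libraries. It called 25 genes of 14599 (0.171%, with 1012 at an unadjusted p under 0.05). Of these 7 were sterol genes, namely Idi1, Fdft1, Msmo1, Hsd17b7, Sc5d, Insig1 and Stard4, and 1 was an ISR gene, Cth. Among these 7 sterol genes only Fdft1 was also called in the main comparison (-0.58, edgeR adjusted p = 0.028). Insig1, for example, was not (-0.70, adjusted p = 0.093). For both lists the median in each treatment, and with it the smaller median under torin1, rests on 1 passage 12 library. The calls for treatment dependence rest on the same libraries. Insig1, whose product holds back SREBP2, was at 30.8 CPM in passage 12 DMSO against 45.1 to 55 CPM, at 40.7 CPM against 105 to 122 CPM in MK-8722, and at 21.4 CPM against 18.2 to 20.9 CPM in torin1. Its difference was therefore negative in DMSO and MK-8722 and slightly positive in torin1 (adjusted p of the interaction = 0.021). Acot2, a mitochondrial acyl-CoA thioesterase, showed the same dependence upward, with 13.6 CPM against 3.82 to 4.65 CPM in DMSO, 21.8 CPM against 8.41 to 9.47 CPM in MK-8722, and 4.95 CPM against 4.62 to 4.75 CPM in torin1 (adjusted p = 0.021). In the later libraries Insig1 had a mean of 51.3 CPM in DMSO, 111 CPM in MK-8722 and 19.9 CPM in torin1, and Acot2 of 4.3, 8.77 and 4.7 CPM. The part of these levels in the size of the difference was not tested.

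**Figure D4:**
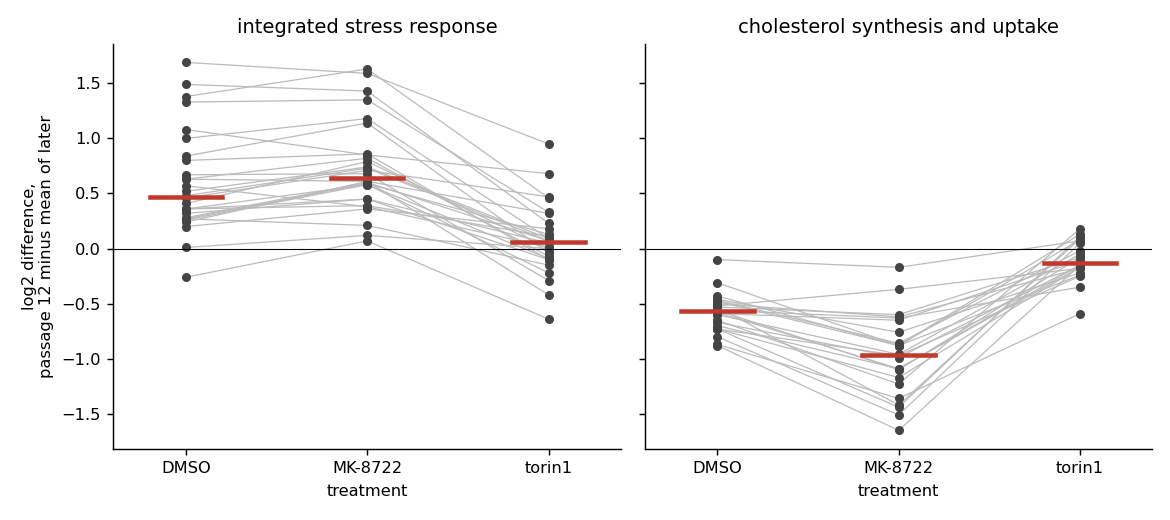
Difference between the passage 12 library and the mean of the 3 later libraries (log2 scale) in each treatment for the tested members of 2 gene lists, with grey lines joining the values of 1 gene and red bars marking medians. The medians for the integrated stress response are 0.47, 0.65 and 0.06 and those for cholesterol synthesis and uptake -0.57, -0.97 and -0.13.

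Several genes downstream of growth factor signalling were higher in passage 12. Of 28 immediate early and ERK feedback genes 6 rose and 1 fell (2.67% and 3.22% of all genes did). Dusp6, a phosphatase that switches off ERK, was at 42.7, 30 and 35.3 CPM in passage 12 under DMSO, MK-8722 and torin1, against 27.3 to 27.9, 19.5 to 20.6 and 20.1 to 21.1 CPM later. The SD of the later libraries was 0.292 to 0.542 CPM (n = 3 per treatment), the passage 12 library was above them in each treatment, and Dusp6 rose by 0.67 ± 0.0436 (adjusted p = 1.5e-06). Myc rose by 0.56 (adjusted p = 2.7e-06), and the ERK-responsive genes Dusp5, Fosl1, Jun and Egr1 rose by 0.58, 0.39, 0.32 and 0.31. Fos, at 1.3 to 2.43 CPM in passage 12 and 2.3 to 4.97 CPM later, fell by 0.91 (adjusted p = 0.0078).

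Of 18 circadian clock genes 7 rose and none fell (2.67% and 3.22% of all genes did). Ciart, a repressor in the clock, rose by 0.73 (adjusted p = 0.00091), from 5.82 ± 0.955 CPM (SD, n = 3) in later DMSO libraries to 9.32 CPM, and Per2, Bhlhe41, Nr1d2, Tef, Cry1 and Cry2 rose by 0.66, 0.72, 0.48, 0.41, 0.34 and 0.27. Among the others Arntl, the activator, differed by -0.17 (adjusted p = 0.43) and Per1 by -0.22 (adjusted p = 0.023), below the fold threshold. With 1 summed library per passage 2 clock genes rose. The sources used here do not give the hour of harvest.

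Interferon-stimulated genes included 7 of 32 that rose and 1 that fell (2.67% and 3.22% of all genes did). Bst2, which tethers budding viruses, rose by 0.63 (adjusted p = 4.2e-05), and Oas1a, an antiviral sensor at low level, rose by 1.5 from 0.264 to 1 CPM in the later libraries to 1.34 to 1.59 CPM. Stat2, which transmits the interferon signal, fell by 0.37. The number that rose was 2 without the passage 12 DMSO library, and 1 rose with summed libraries. Of 23 p53 targets 3 rose, among them Eda2r, a death receptor, by 0.98 and the cell cycle inhibitor Cdkn1a by 0.76, and Fas fell by 0.74. Cdkn1a was at 62.9 CPM in passage 12 DMSO against 29.4 to 34.9 CPM and at 17.5 CPM in torin1 against 13.6 to 18.5 CPM, so the passage 12 library lay within the later ones under torin1. Without the passage 12 DMSO library edgeR called 0 p53 targets as higher, with 11 of the 23 at an unadjusted p under 0.05.

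Of 20 matrix proteases and inhibitors 6 fell and 1 rose (3.22% and 2.67% of all genes did). Adamts1, a secreted protease of proteoglycans, was at 39.7, 36.2 and 25.1 CPM in passage 12 and at least at 86.6, 99.8 and 37.5 CPM in later libraries under DMSO, MK-8722 and torin1, a fall of 1.14 on the log2 scale (adjusted p = 0.0011). Adamts5, an aggrecanase, fell by 0.95, and Plat, the tissue plasminogen activator, by 0.63. Mmp9, a gelatinase at under 0.4 CPM in every passage 12 library, fell by 1.74, and Plaur, the urokinase receptor, rose by 0.32. Of 24 TGF-beta and BMP genes 6 fell and 1 rose, with Tgfbi, a matrix protein induced by TGF-beta, at 9.08 CPM in passage 12 DMSO against 15.7 to 22 CPM and down by 1.16 (adjusted p = 0.0073). The ligands Bmp4 and Tgfb2 fell by 1.02 and 0.95. With summed libraries edgeR called 0 genes of this list (8 at an unadjusted p under 0.05), and 2 fell without the passage 12 MK-8722 library.

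Of 19 collagen chain genes 3 fell (3.22% of all genes did), namely Col6a1, Col6a2 and Col7a1, by 0.68, 0.90 and 0.53. The list's median was -0.55. DESeq2 called 10 as lower, while edgeR called 1 with summed libraries, 0 with RIN as covariate (3 at an unadjusted p under 0.05), 2 without any 1 of the passage 12 libraries, 6 without the passage 13 torin1 library and 5 without that of passage 14. Against passage 13 alone 15 collagen genes were lower, against passage 14 there were 9 and against passage 15 there were 10, with medians of -0.87, -0.32 and -0.32. Of all genes 5.79%, 2.5% and 3.09% were lower in these contrasts, and of the 24 sterol genes 11, 5 and 5. Of the 28 ISR genes 9, 10 and 10 were higher (3.56%, 1.84% and 2.68% of all genes were). Col1a1, a chain of type I collagen, was at 2275 CPM in passage 12 DMSO and at 4669, 3530 and 3281 CPM in passages 13, 14 and 15. Passage 12 was lowest and passage 13 highest, and Col1a1 was not called in the main comparison (-0.83, adjusted p = 0.071). Of the 19 genes 12 differed among passages 13, 14 and 15, where 388 of all genes did (2.66%). Of the 24 sterol genes 0 did by edgeR, with 1 at an unadjusted p under 0.05, and of the 28 ISR genes 1 did, Slc7a11.

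**Figure D5:**
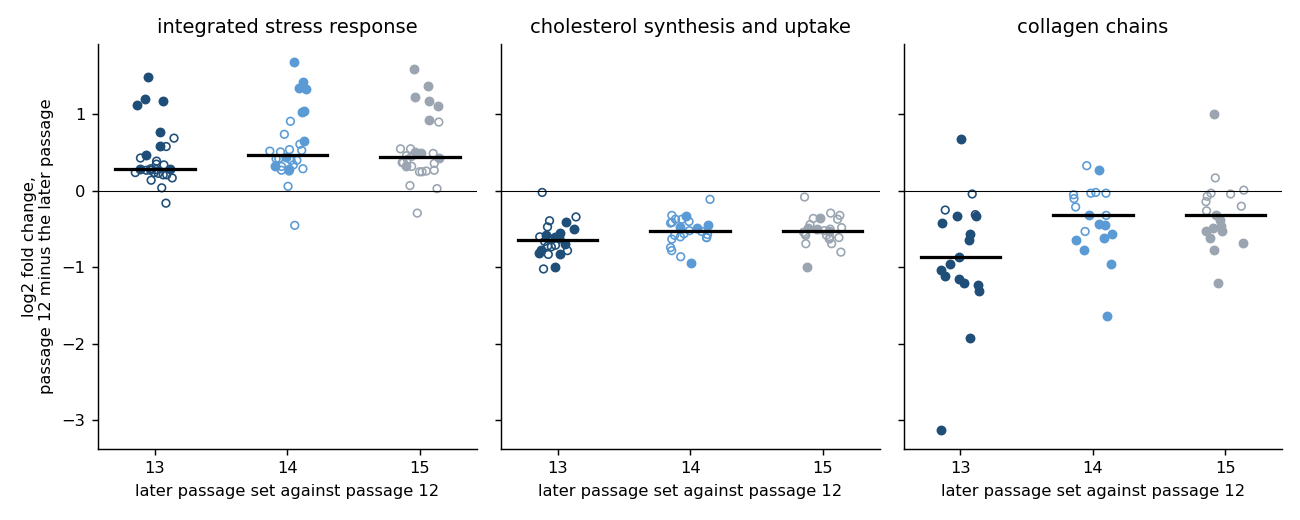
Log2 fold change of passage 12 against passage 13, 14 or 15 (horizontal axis) for tested members of 3 gene lists, with filled points for genes called in that contrast and black bars for medians. The collagen medians are -0.87, -0.32 and -0.32, while the sterol medians are -0.65, -0.53 and -0.52.

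Over all genes passage 12 differed from passage 13 in 1366 (9.36%; 520 higher or 3.56%, 846 lower or 5.79%), from passage 14 in 634 (4.34%; 269 higher or 1.84%, 365 lower or 2.5%) and from passage 15 in 842 (5.77%; 391 higher or 2.68%, 451 lower or 3.09%). These contrasts share the passage 12 libraries. Without the DMSO library of passage 14 the count against passage 14 was 318, without its MK-8722 library 269, without the passage 12 DMSO library 368 and without the passage 12 torin1 library 962. Against passage 15 it was 460 without the passage 15 MK-8722 library and 561 without the passage 12 DMSO library. The count among passages 13 to 15 was 228 and 220 without the MK-8722 or the DMSO library of passage 13 and 252 without the MK-8722 library of passage 15. Mean levels of 146 called genes (17%) moved in 1 direction from passage 12 through 15, as did 11.6% of all genes. Passage 12 was farthest from passage 13 in 472 of the 860 called genes (54.9%) and in 46.1% of all genes. The passage 12 library lay outside the later libraries on the same side in every treatment in 756 called genes and in 18.7% of all genes.

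The largest falls by the naming rule included Tgfbi and Adamts1 and, in the fit across treatments, were in each case greatest against passage 13. Within single treatments Adamts1 was farther from passage 15 in DMSO (91.4 CPM, against 87.9 CPM in passage 13). The same held in MK-8722 (112 against 104.4 CPM), while in torin1 passage 13 was farthest. Cacna1g and Cacna1h, which encode T-type calcium channels, fell by 1.64 and 1.61. Cacna1h was at 8.78 CPM in passage 12 DMSO and at 45.1, 31.5 and 22 CPM in passages 13, 14 and 15. H19, an imprinted non-coding RNA, was at 1.95 CPM against 8.57, 3.68 and 3.54 CPM in DMSO and fell by 1.6 (adjusted p = 0.041). Ptn, a secreted growth factor, Rnf150, a ubiquitin ligase-like gene, Cyp1b1, a cytochrome P450, Scube3, a secreted signalling protein, Igsf10 and Nebl fell by 1.32, 1.24, 1.23, 1.16, 1.11 and 1.06. Sema3b, a secreted semaphorin, stood apart with 11.2 to 12 CPM in later MK-8722 libraries and 5.37 CPM in passage 12, and fell by 1.05 (adjusted p = 3.1e-05), a call it kept with summed libraries (adjusted p = 0.022). H19 and Ptn lost the call in 6 of the 12 fits that left out 1 library and Igsf10 in 9.

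Beside the ISR genes, Dusp6 and Acot2 (1.11), the largest rises by the naming rule were those of Gfra1, a receptor subunit for GDNF, of Itpr2, a calcium release channel, of Ank2, an ankyrin, of Ccbe1, a secreted factor of lymphatic growth, of the interferon-inducible Gvin1 and of Lgals3bp, by 1.10, 0.81, 0.78, 0.73, 0.81 and 0.70. Gfra1 was at 2.82, 15.1 and 20 CPM in passage 12 under DMSO, MK-8722 and torin1 and at most at 1.48, 8.41 and 11 CPM later. All passage 12 libraries were above the later ones for these genes, as the naming rule requires. Gvin1 lost the call in 8 of the fits that left out 1 library.

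Of 40 DNA replication and 34 mitosis genes edgeR and DESeq2 called 0, with 15 and 14 at an unadjusted p under 0.05. Differences were -0.13 to 0.18 and -0.20 to 0.01, short of the fold threshold, with medians of 0.04 and -0.09. The lowest adjusted p by DESeq2 was 0.00014 and 0.0018. Of the replication genes 29 had a positive difference, and of the mitosis genes 29 had a negative one. Against passage 15 alone 4 mitosis genes were called as lower (3.09% of all genes were), at a median of -0.15. Among passages 13 to 15, 2 mitosis genes were called (2.66% of all genes were), and 25 of the 34 had an unadjusted p under 0.05. Both tools called 0 as well of 20 endoplasmic reticulum chaperone and unfolded protein response genes (median 0.01), of 16 smooth-muscle contractile genes, of 76 cytosolic ribosomal protein genes and of 13 mitochondrially encoded genes, with 3, 4, 5 and 0 at an unadjusted p under 0.05. Of 10 genes linked to senescence 1 was called, the cyclin-dependent kinase inhibitor Cdkn2c, which fell by 0.33. Of 42 lysosomal genes Gpnmb, Sqstm1 and Ctsl rose by 0.61, 0.34 and 0.27 and none fell (2.67% and 3.22% of all genes did). Without the passage 12 DMSO library edgeR called 0 of them (13 of the list at an unadjusted p under 0.05), and Gpnmb lost the call in 9 of the 12 fits that left out 1 library. Small heat shock genes Hspb8, Hspb1 and Cryab fell by 0.51, 0.48 and 0.48, the 3 called of 21 chaperone genes.

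The remaining lists held few calls, some of them near the shares of all genes, which were 2.67% higher and 3.22% lower. Among YAP and TAZ targets Fjx1 rose by 0.99 and Tgfb2 fell, with 3 higher and 2 lower of 20. Of 15 hypoxia genes Vegfa rose by 0.48 and Bnip3 fell by 0.34, and of 19 glycolysis genes Hk2 rose by 0.28 while Slc16a3 and Pfkm fell by 0.45 and 0.29. Matrix crosslinking genes had 1 rise, of Fbln2 by 0.34, and 3 falls, the largest of P4ha3 by 0.45, of 24 tested. Of 6 metallothionein and zinc genes Mt1 and Slc30a1 rose by 0.41 and 0.36, and of 22 NRF2 targets Slc7a11 rose and Me1 fell. Of 17 chemokine and cytokine genes 3 fell, among them C3 at under 1 CPM, by 1.51. Of 15 imprinted genes H19, Peg10 and Igf2 fell by 1.6, 0.55 and 0.46, and of 11 HOX genes Hoxa10 and Hoxa11 fell by 0.42 and 0.34. Of 11 adipogenic genes Cebpd fell by 0.52. Bnip3, C3 and Cebpd each lost the call in 8 of the 12 fits that left out 1 library.

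The same question was put to the AMPK KO cells, where passage 16 was set against passages 17 to 19. It called 424 of 15828 genes (2.68%), 267 higher (1.69%) and 157 lower (0.992%). The difference between the genotypes' earliest passage differences was called in 822 genes (5.19%), 452 higher in WT than in AMPK KO (2.86%) and 370 lower (2.34%), or 280 and 579 when libraries were scaled by their size alone. It was 363 without AMPK KO DMSO replicate 3 and 512 without AMPK KO MK-8722 replicate 2. Of 859 genes called in WT 69 were called in AMPK KO in the same direction and 21 in the opposite direction. For the difference between genotypes 382 of the 859 (44.5%) were called. Choosing genes by their WT difference favours that share, since the test uses the same WT libraries. Across 14564 genes, which are not independent replicates, the correlation of the WT with the AMPK KO differences was 0.09 by Pearson's r and 0.13 by Spearman's rho. The genotypes shared no passage number, so genotype and passage range cannot be told apart in these counts.

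Some genes of the sterol list went the same way in both genotypes. In AMPK KO 2 of 24 sterol genes fell, among them Srebf2 by 0.33 (adjusted p = 0.0047), at a list median of -0.23. For the difference between genotypes 2 were called, Pmvk and Dhcr7. Cth rose by 0.91 in AMPK KO (adjusted p = 0.0099), while the ISR list had a median of 0.08 there, and 7 ISR genes were called as higher in WT for the difference. Dusp6 differed by -0.05 in AMPK KO, and the difference between genotypes was called (adjusted p = 1.9e-05). H19 rose by 1.5 and Ptn by 1.04 at passage 16 of AMPK KO, opposite to WT, with adjusted p of 0.00085 and 0.00077 for the difference between genotypes.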

How the data were processed

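Poly(A) RNA of 24 MEF libraries was sequenced as paired-end reads. Per the submitters' processing notes and the study's methods, the authors aligned to GRCm38 with STAR and quantified with Salmon in the nf-core/rnaseq workflow. Estimated counts, neither normalized nor all whole, make up the deposited gene table, and the authors' transcript files give estimated counts, effective lengths and TPM for each library. Gene counts were used throughout, while the effective lengths and TPM deposited per transcript entered only the alternative with a length offset.

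WT libraries were grouped by their passage labels. Counts were rounded, filtered with filterByExpr and scaled with TMM, and a quasi-likelihood model with treatment and passage class was fitted to the 12 WT libraries in edgeR 4.0.16 under R 4.3.3 (limma 3.58.1 and DESeq2 1.42.0 served for alternatives). Tests were two-sided, with Benjamini-Hochberg adjustment over 14599 genes, and 860 is the count with an adjusted p under 0.05 that also had a fold change of 1.2 or more. Standard errors (SE) came from the fit, which had 8 residual degrees of freedom. The common biological coefficient of variation was 0.068, and 99.949% of counts lay in tested genes. The passage contrasts, the interaction with treatment and the 24-library fit used the same test. CPM of single genes are TMM-scaled, while marker sums and the marker averages under 0.1 CPM were scaled by total counts alone. Log2 differences within a treatment used a prior count of 2. Whether molecular identifiers removed all copies was not tested here.

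The members, gene lists and tests were chosen with earlier results of these data known. Named were the 12 largest rises and 12 largest falls among called genes at a mean of at least 5 CPM whose passage 12 library lay outside the later ones in every treatment, without gene models, pseudogenes and microRNA hosts, plus the largest called member of each list in either direction, Prkaa1, Prkaa2, Xist, Y-linked genes and fibroblast markers. Beyond those described, Prkaa2 differed by 0.27 and Xist by 0.15, and the Y-linked genes Gm20775, Mid1-ps1 and Gm47283 by -0.38, -0.78 and 0.14, none of them called (adjusted p = 0.23, 0.051, 0.87, 0.19 and 0.11). Positions are from GENCODE for GRCm38. Alternatives were other scalings, filters and thresholds, DESeq2, unrounded counts, a length offset, replicate, passage and RIN terms, a linear passage slope, summed libraries, all 24 libraries, and leaving out each library or passage. Some genes that the naming rule or the lists hold are not reported here by name, but stay in the counts and medians of lists. The procedure was tested on simulated counts.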

Additional observations from a re-analysis of the deposited data

Results flagged for a closer look

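In 171 values tested, 26 stood so far from the other 3 libraries of their treatment that the gap to the nearest, divided by the range, passed Dixon's critical value. Chance marks about 1 group in 20. Of the 26, 24 are passage 12 libraries, as the choice of genes that differ at passage 12 favours. In DMSO they were Vldlr at 83 CPM, Cth at 63.9, Acot2 at 13.6, Dusp6 at 42.7, Vegfa at 75.7, Oas1a at 1.59 and Plaur at 60.3 CPM, all high, and Adamts1 at 39.7, Cdkn2c at 52 and Me1 at 89 CPM, all low. In MK-8722 the high ones were Vldlr at 93.1, Cth at 68.4, Acot2 at 21.8, Gfra1 at 15.1, Atf5 at 264, Ank2 at 96.9, Dusp6 at 30, Hk2 at 118, Slc7a11 at 27.4 and Ciart at 8.49 CPM, and the low ones Adamts1 at 36.2, Sema3b at 5.37 and Scd2 at 603 CPM. In torin1 Dusp6 stood apart at 35.3 CPM. The other 2 were passage 13 libraries, with Fas at 1.27 CPM in DMSO and Mid1-ps1 at 1.61 CPM in MK-8722.

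The earliest passage difference depended on treatment for Cth (adjusted p = 0.024) and Acot2 (adjusted p = 0.021). The edgeR test of the difference itself between WT and AMPK KO called 5.19% of all genes. Most named genes were chosen by their WT difference, which favours a call, since the test uses the same WT libraries. By this test the earliest passage difference differed between the genotypes for 33 of the 57 named genes. On the log2 scale, WT minus AMPK KO, it was higher for Vldlr (0.94), Gfra1 (1.12), Ccbe1 (1.54), Dusp6 (0.72), Eda2r (0.94), Fjx1 (1.19), Vegfa (0.38), Hk2 (0.48), Slc7a11 (1.01), Ciart (0.78) and Plaur (0.59). It was lower for Cacna1g (-1.85), Cacna1h (-2.32), H19 (-3.09), Ptn (-2.35), Rnf150 (-1.36), Cyp1b1 (-1.80), Scube3 (-0.95), Adamts1 (-0.92), Igsf10 (-1.38), Nebl (-0.97), Sema3b (-0.99), Fas (-0.79), Cdkn2c (-0.39), Col6a2 (-0.79), Fbln2 (-0.65), Bnip3 (-0.47), Slc16a3 (-0.56), Scd2 (-0.52), Hspb8 (-0.57), Stat2 (-0.56), Fos (-1.13) and Mmp9 (-1.56). For Fbln2, which rose in WT, the fitted AMPK KO difference was the larger of the pair.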

How the results depend on the processing

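The passage 12 count of 860 was 709 to 921 under other scalings and filters, DESeq2, unrounded counts, the length offset and passage as a random block, 1093 with all 24 libraries, and 669 to 882 without passage 13, 14 or 15. It moved to 230 with summed libraries, 95 with RIN as a covariate, 45 with a linear passage slope (37 of them higher), 92 in a test against a fold change of 1.2, 1831 by adjusted p alone and 296 at a fold change of at least 1.5. Leaving out 1 library gave 430 to 916. With replicate number as a block it was 514, but the numbers did not pair the libraries. Same-numbered libraries of different passages had deviation correlations of -0.22 to 0.0858 (median -0.00636). Libraries of the same passage had 0.136 to 0.325 within passage 12, and 0.0129 to 0.329 (median 0.08) within passages 13 to 15, which overlaps the range of same-numbered libraries. At a fold change of at least 1.5 the counts against passages 13, 14 and 15 were 532, 211 and 262, that among passages 13 to 15 was 158 and that for the difference between genotypes 269. Without a filter the count against passage 14 was 996, among passages 13 to 15 851, for the treatment dependence 325 and for the difference between genotypes 1253. Leaving out 1 library gave 269 to 962 against passage 14, 460 to 1059 against passage 15, 220 to 550 among passages 13 to 15 and 363 to 981 for the difference between genotypes. No named gene that was called changed direction in any of these fits, while the uncalled Prkaa1, Gm20775 and Mid1-ps1 did in some. Of the 51 named genes that were called 40 lost the call with RIN as a covariate, 32 with summed libraries, 24 with the block and 22 without the passage 12 DMSO library. The causes were not tested, and some of these fits hold fewer libraries. With 1 passage 12 library per treatment, differences within a treatment have no replicate.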
